A study of Mus musculus with 6 samples.

Results

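The receptors described here are 31 members of the nuclear receptor superfamily, taken by gene symbol from the count tables, with the estrogen-related receptors and the PPAR alpha and PPAR delta genes left out. All 31 symbols stood on 1 row each among the 23282 rows of the tables. They were measured in primary acinar cells of the mouse pancreas, strain C57BL/6J, by sequencing of 3' tags, in 3 libraries of the genotype ERRgamma -/- (a conditional knock-out, cKO) and in 3 control libraries labelled wild type. ERR gamma, encoded by Esrrg, is itself an orphan nuclear receptor, and the comparison asks which genes its loss changes. Both groups were kept in the same culture medium with serum and epidermal growth factor. The sources used here do not state how the gene was deleted, how long the cells were cultured, or the age, sex and number of the animals. P-values therefore refer to the variation among the 6 libraries, part or all of which may be technical.

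Nuclear receptors are transcription factors that bind DNA through a zinc-finger domain and, in most cases, change activity when a small fat-soluble ligand enters their ligand-binding domain. Many work as heterodimers with a retinoid X receptor, steroid receptors work mainly as homodimers held by chaperones until hormone arrives, and orphan receptors such as the NR4A group are controlled mostly through how much of them is made. In the pancreas the family is known for both acinar maintenance and the activation state of stroma, retinoid signalling in stellate cells being a familiar case.

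The cKO libraries held 15.2 M to 17 M counts (M, 1e+06) and the control libraries 23 M to 25.2 M. Acinar enzyme and granule genes filled 18.5%, 49.6% and 25.3% of cKO replicates 1, 2 and 3, against 77.3% to 79.4% of the control libraries. The TMM method, which scales libraries so that the bulk of genes shows no change, gave effective sizes of 59.4 M, 33.2 M and 60 M in cKO and 7.53 M to 8.5 M in control. Levels below are given in CPM, the counts per 1e+06 of that effective size, and "rose" and "fell" mean relative to the bulk of genes, at an adjusted p under 0.05 in the quasi-likelihood test of edgeR over all 13132 tested genes. On library totals in place of TMM, log2 fold changes lie higher, by 3.26 in the median of all tested genes, and all 26 tested receptors had a positive one there. Esrrg had 0, 9 and 1 counts in cKO and 0, 0 and 0 in control. Since no control library held an Esrrg tag, no loss of it could be seen, and a deletion need not reach the tagged 3' end. The genotype therefore cannot be checked from these counts.

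Markers of acinar cells were present in all 6 libraries, and markers of other cells stood beside them. The 20 acinar markers took 14.5% to 35% of all counts in cKO and 38.8% to 42.4% in control, and 20 of 20 fell. All 10 monocyte and macrophage markers rose, with summed levels of 242 to 530 CPM in cKO and 59.7 to 88.5 CPM in control. Of 10 fibroblast and stellate cell markers 8 rose and 0 fell, with sums of 3573 to 5099 CPM in cKO and 726 to 823 CPM in control. Of 5 mesothelial markers 4 rose and 1 fell (138 to 146 CPM in cKO, 64.5 to 86.2 CPM in control). Of 8 endothelial markers 4 fell and 0 rose (25.3 to 42.7 CPM in cKO, 57.2 to 60.7 CPM in control), and of 7 tested duct markers 4 fell and 2 rose (108 to 127 CPM in cKO, 208 to 252 CPM in control). Islet (398 to 821 CPM in cKO, 566 to 910 CPM in control) and adipocyte sums (22.6 to 34.8 CPM in cKO, 31.1 to 48.5 CPM in control) overlapped, and 1 of 8 tested islet and 1 of 3 tested adipocyte markers fell. Lymphocyte markers summed to 6.24 to 9.03 CPM in cKO and 0.353 to 5.45 CPM in control, with 2 of 6 tested higher, and Schwann and neural markers to 3.22 to 3.98 CPM in cKO and 1.06 to 1.65 CPM in control, with 0 of 3 tested passing. Of the markers in these lists, Lep had 0 counts in all 6 libraries, and Cidec and Sox10 had 0 in the 3 control libraries. On library totals the median log2 fold change was 2.39 for endothelial and 2.15 for duct markers, so these falls turned round, while it was -0.98 for acinar markers. In such mixed samples, fewer cells of a type and less RNA per cell cannot be told apart.

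**Figure D1:**
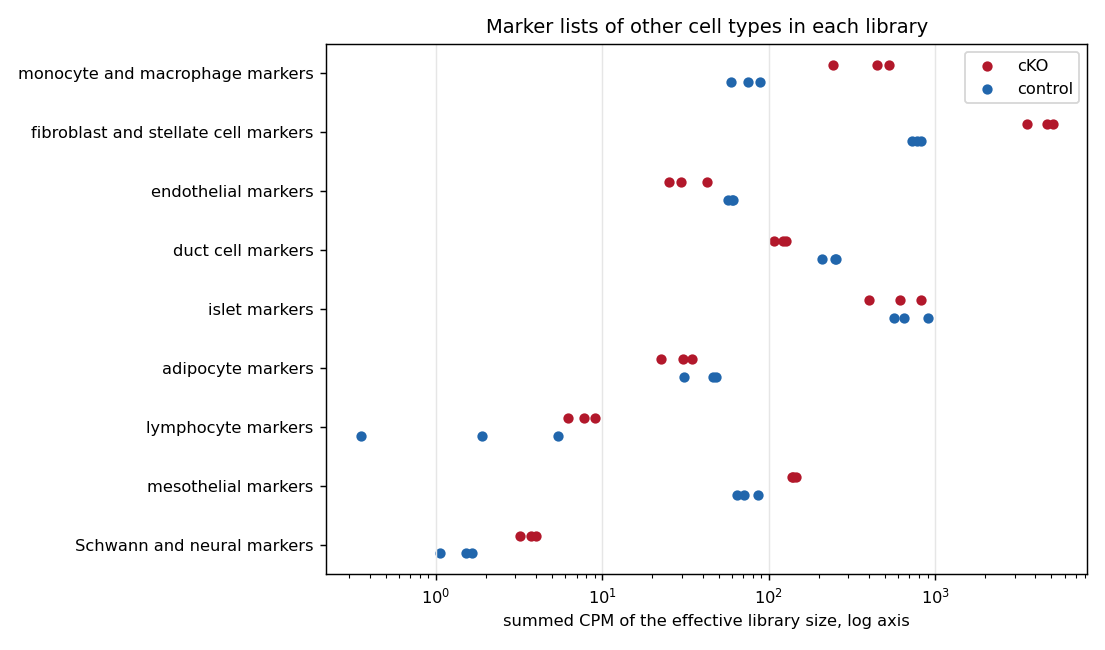
Summed CPM of the effective library size (log axis) for 9 marker lists of cells other than acinar cells, 1 point per library, cKO above control in each row. Macrophage, fibroblast, mesothelial, lymphocyte, and Schwann and neural sums lie higher in every cKO library than in every control library. Endothelial and duct sums lie lower on this scale, though on library totals the median fold changes of the endothelial and duct markers were positive.

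Of the 31 receptors, 26 passed the filter on low counts and 12 of these changed: 7 rose and 5 fell. That is 46.2% of the tested receptors, against 44.7% of all tested genes, so the number of changed receptors is near the background and is not a result about the family. By direction, 26.9% rose and 19.2% fell, against 24.0% and 20.7% of all tested genes. The groups did not overlap for 15 receptors (57.7%), against 56.2% of all tested genes. The median log2 fold change of the tested receptors was 0.05, and that of all tested genes 0.10. The calls and directions of the 7 that rose held under every scaling, filter, tool and left-out library run, save that Pgr was not tested with the strictest filter. Of the genes called on library totals 99.6% were higher, and on totals outside the acinar enzymes, Rn45s and Casp9 95.2%. A rise could hardly be lost on these scales, so its holding there is no support. Those that rose were the 3 NR4A genes, the estrogen and progesterone receptor genes Esr1 and Pgr, the retinoic acid receptor gene Rarg and the COUP-TF gene Nr2f2, and those that fell were Hnf4a, Nr2f6, Thrb, Rxra and Rora, all 5 of which had a positive fold change on library totals. Esr1 and Pgr passed the filter through their cKO counts alone, the group in which they are high.

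More receptors were detected in cKO libraries, whose effective sizes were larger. In the cKO libraries 26, 26 and 27 receptors had at least 10 counts, and in the control libraries 19, 20 and 21 did. With every library thinned at random to the smallest effective size, the numbers were 20, 25 and 23 in cKO and 19, 20 and 21 in control. Receptors with at least 10 counts in all 6 libraries numbered 18. Of the tested receptors, Rarb, Esr1, Pgr and Nr2f1 had under 10 counts in every control library, so these 4 passed the filter through their cKO counts. Vdr, Nr1h4, Pparg and Nr2c1 did not reach 10 counts in all 3 control libraries, so they too needed cKO counts to pass. Receptors with at least 10 counts in all 3 control libraries numbered 18.

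**Figure D2:**
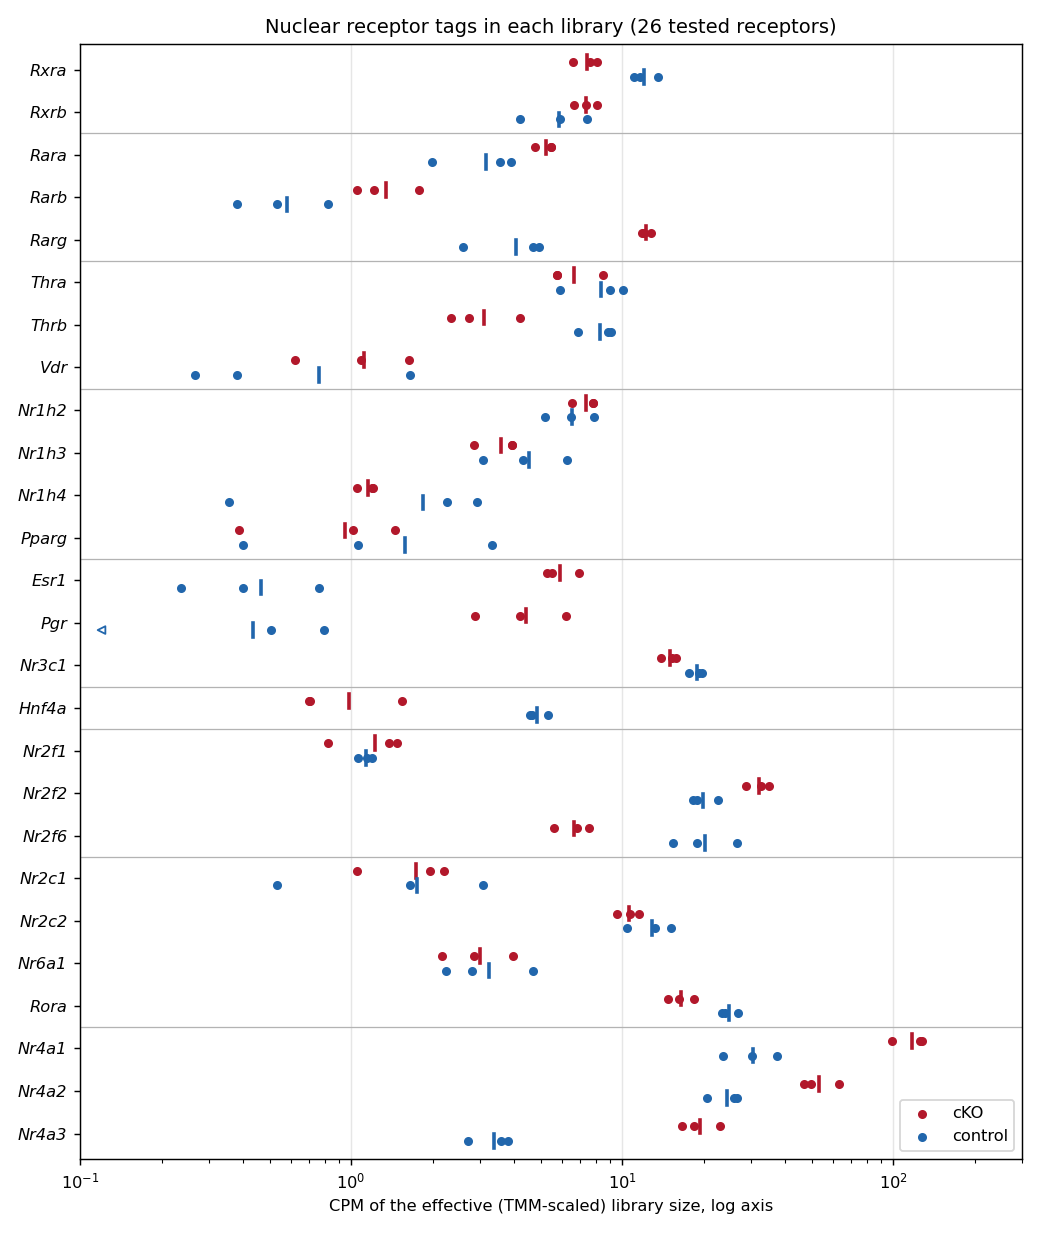
Level of each of the 26 tested receptors in CPM of the effective library size (log axis), 1 point per library with the group mean as a bar, cKO above control in each row; grey lines part the receptor groups, and the open triangle marks a library with 0 counts. The 3 NR4A genes, Esr1, Pgr, Rarg and Nr2f2 lie wholly to the right in cKO, and Hnf4a, Nr2f6, Thrb, Rxra and Rora wholly to the left, a direction that holds relative to the bulk of genes and turns round for these 5 on library totals.

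The NR4A genes Nr4a1 (Nur77), Nr4a2 (Nurr1) and Nr4a3 (NOR1) encode orphan receptors whose ligand pocket is filled by side chains and whose genes are switched on within minutes of a stimulus, in part through CREB bound at cyclic AMP response elements (CRE). All 3 rose. Their promoters are shown because these 3 genes moved together: each line gives the 250 bases before the start of transcription in the RefSeq table of build GRCm38.p6, 5' to 3' in the direction of the gene. For Nr4a3 only the first 98 of them are shown, since GENCODE places an exon over the other 152. The capitals mark the CRE core TGACG or its reverse complement CGTCA.
Nr4a1 (chr15:101266596-101266845, plus strand): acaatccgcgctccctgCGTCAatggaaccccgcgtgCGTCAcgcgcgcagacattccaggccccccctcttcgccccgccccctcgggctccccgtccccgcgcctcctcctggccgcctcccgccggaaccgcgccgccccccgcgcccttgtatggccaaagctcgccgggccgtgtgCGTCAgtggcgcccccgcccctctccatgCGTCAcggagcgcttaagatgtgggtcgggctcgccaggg
Nr4a2 (chr2:57124004-57124253, minus strand): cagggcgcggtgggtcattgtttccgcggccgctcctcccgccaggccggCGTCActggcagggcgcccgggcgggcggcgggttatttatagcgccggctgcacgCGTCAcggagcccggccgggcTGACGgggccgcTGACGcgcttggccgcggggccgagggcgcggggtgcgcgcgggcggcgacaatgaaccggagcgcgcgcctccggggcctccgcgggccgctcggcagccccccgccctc
Nr4a3 (chr4:48045055-48045152, plus strand): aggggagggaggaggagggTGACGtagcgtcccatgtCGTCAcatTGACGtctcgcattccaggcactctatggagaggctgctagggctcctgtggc

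Each of the 3 windows of 250 bases holds the CRE core 4 times, and the part shown for Nr4a3 holds 3 of its 4. At least 1 match on either strand was found in 17.8% of 32851 promoters of the same length, and 4 or more in 45 of them (0.137%), of which 3 are the NR4A promoters. The limit of 4 was chosen after the NR4A promoters were seen to hold 4. Of the 43 promoter entries of 28 receptors in the table, those of 9 receptor genes held the core, the others being Rxrb, Rara, Thrb, Nr2c1, Nr2c2 and Nr6a1. Counted by gene in the same way, the core was found for 19.8% of 27025 genes, and the difference was not tested. The full palindrome TGACGTCA, which contains the core, was in 0 of the 43 entries (1.55% of all promoters). The element bound by ERR receptors, TNAAGGTCA, was also in 0 of them (1.14% of all), and the element bound by NR4A monomers, AAAGGTCA, which can overlap it, was in 1 entry each of Rxra and Rxrg (1.34% of all). These are matches of letters, not sites of binding, and a window of this size holds few of a gene's control regions.

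In the GENCODE annotation of GRCm38 Nr4a1 lies at chr15:101254269-101274795, Nr4a2 at chr2:57106830-57124003 and Nr4a3 at chr4:48045153-48086447, so that the annotated gene of Nr4a1 begins before its window. Nr4a1 stood at 126, 99.1 and 128 CPM in cKO replicates 1, 2 and 3 and at 37.2, 30.2 and 23.5 CPM in control replicates 1, 2 and 3. Every cKO library lay above every control library, a log2 fold change of 1.96 ± 0.19 (SE; edgeR adjusted p = 2.08e-06). Nr4a2 had 63.1, 49.8 and 46.8 CPM in cKO, against 20.6, 26.5 and 25.9 CPM in control, also without overlap, and rose by 1.13 ± 0.17 (adjusted p = 9.61e-05). Nr4a3 had 18.4, 16.6 and 23.0 CPM in cKO, against 3.59, 2.71 and 3.81 CPM in control, where its counts were 27, 23 and 30. It rose by 2.53 ± 0.23 (adjusted p = 1.37e-06). Of the other immediate early genes, 9 of 12 rose and 0 fell (0 also at an unadjusted p under 0.05 and with DESeq2). Of all tested genes 24.0% rose and 20.7% fell, and their median was 0.10, against 0.89 for this list. Among the 9 was Fosl1, with 158, 69 and 249 counts in cKO and 4, 3 and 8 in control. It was tested because of its cKO counts, so its direction is no independent support. Ier3, an inhibitor of cell death induced by stress, rose by 2.11 ± 0.19, the AP-1 subunit gene Junb by 1.30 ± 0.18, Fosb by 0.99 ± 0.15 and Egr2 by 2.47 ± 0.40, while Jun did not pass (-0.21 ± 0.17). Macrophage and fibroblast markers were higher in the same cKO libraries, and their part in these rises was not tested.

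The share of receptor tags is a measure that no scaling between libraries alters, since it divides each receptor's counts by the summed counts of the 31 receptors in the same library (10740 to 21771 in cKO, 1671 to 1970 in control). NR4A tags made up 56.5%, 51.1% and 57.0% of them in cKO, against 26.7%, 25.6% and 25.1% in control, a difference of 29.1 percentage points between group means. Retinoic acid receptors took 5.45% ± 0.248 in cKO and 3.48% ± 0.510 in control (SD, n = 3 each), again without overlap. Within this group only the share of Rarg was apart (mean 3.54% in cKO, 1.82% in control), and those of Rara and Rarb overlapped. The other 7 groups of receptors each took a smaller share in every cKO library than in every control library. A share falls when another rises, so these 7 falls are not separate from the rise of the NR4A tags. Among single receptors, 6 had higher shares in every cKO library (the 3 NR4A genes, Rarg, Esr1 and Pgr), 9 had lower shares in every cKO library, and 16 overlapped. These 9 falls too are not separate from the rise of the NR4A tags. Nr1h3, Nr2f1 and Nr2c2 are among the 9, yet their groups overlapped in CPM and they did not pass. Shares of receptor tags have no counterpart over all genes, so these counts are not read as a result. Nr2f2, which rose relative to the bulk of genes, was among those that overlapped, at 9.28% ± 0.920 in cKO and 8.86% ± 0.922 in control.

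**Figure D3:**
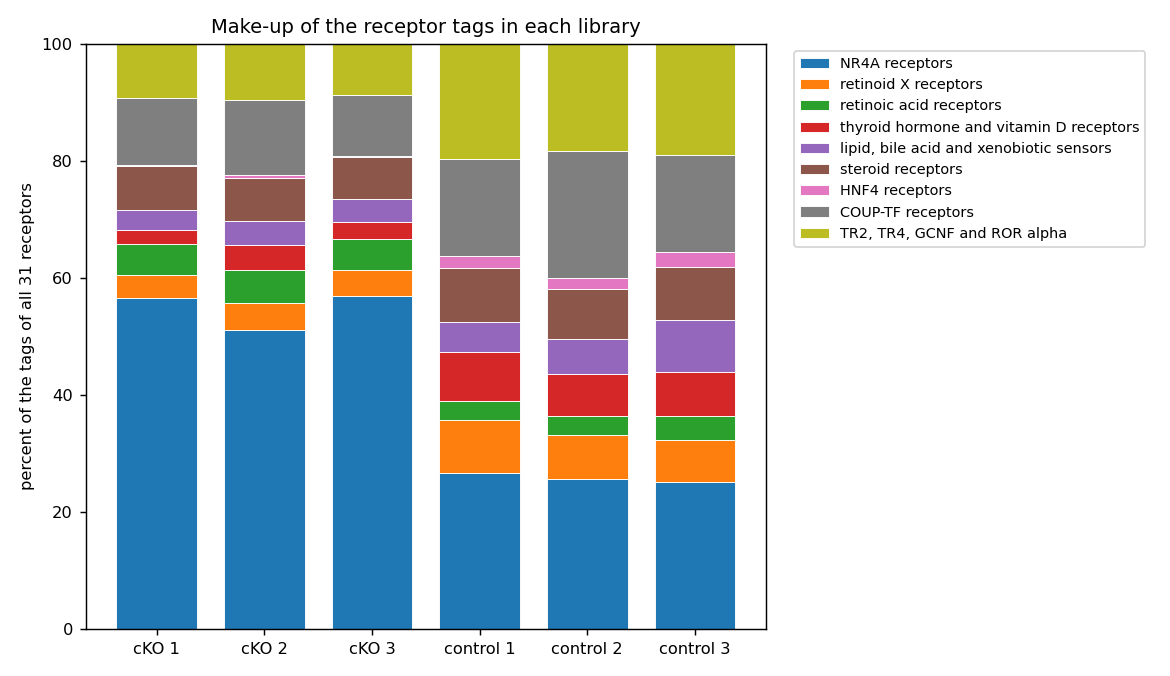
Percent of the tags of all 31 receptors taken by each of 9 receptor groups in every library, stacked to 100%. NR4A receptors fill 51.1% to 57.0% of each cKO bar and 25.1% to 26.7% of each control bar, and RXR, thyroid, COUP-TF and HNF4 shares are smaller in cKO; these shares do not depend on the scale between libraries. Since each bar sums to 100%, the smaller shares are not separate from the larger NR4A share and do not show that those tags fell.

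Among the steroid receptors, Esr1 and Pgr had the highest fold changes of the tested receptors. Both had at most 6 counts in any control library and passed the filter through their cKO counts alone. They were thus tested because of the group in which they are high, and their rank is not read as a result. Esr1 encodes estrogen receptor alpha, and Pgr, the progesterone receptor, is a classic estrogen-induced gene in the uterus and breast. Esr1 lies at chr10:4611593-5005614 and Pgr at chr9:8899833-8968611. Esr1 was counted 328, 231 and 317 times in cKO (5.52, 6.96 and 5.28 CPM) and 3, 2 and 6 times in control (0.399, 0.235 and 0.762 CPM). The groups lay far apart, with a log2 fold change of 3.67 ± 0.43 (edgeR adjusted p = 1.05e-05). Pgr was counted 368, 95 and 253 times in cKO (6.19, 2.86 and 4.22 CPM) and 6, 0 and 4 times in control, where 1 library thus had none. Its log2 fold change was 3.38 ± 0.61 (adjusted p = 0.000470), but 4.16 without control replicate 1 and 2.77 without control replicate 2, so the size of this rise is uncertain. Esr2, which encodes estrogen receptor beta, had 0 to 2 counts per library.

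The glucocorticoid receptor gene Nr3c1, broadly expressed and the mediator of cortisol and corticosterone action, had 15.8, 13.9 and 15.3 CPM in cKO, against 19.8, 19.2 and 17.6 CPM in control. Its groups did not overlap, yet it did not pass the test (-0.33 ± 0.17; adjusted p = 0.121; 95% interval -0.69 to 0.02). The mineralocorticoid receptor gene Nr3c2 had 5, 0 and 4 counts in cKO and 4, 2 and 0 in control and was not tested. Of 12 tested genes of glucocorticoid response and handling, 5 rose and 3 fell, with a median of 0.82. The shares over all tested genes were 24.0% and 20.7%. Among the 5 was Hsd11b2, with 18, 15 and 32 counts in cKO and 0, 1 and 0 in control. It was tested because of its cKO counts, and its call was lost whichever library was left out. The phosphatase gene Dusp1 (2.01 ± 0.18) and the clock gene Per1 (1.65 ± 0.27), which are also immediate early genes, rose, whereas Tsc22d3 (GILZ; -0.83 ± 0.20) and Ddit4 (-2.20 ± 0.20) fell, a direction that turned round on library totals. The number that rose was 3 without cKO replicate 1 or without control replicate 3. Of 8 chaperones and cochaperones of steroid receptors, the cochaperone gene Fkbp4 fell (-1.72 ± 0.15, positive on library totals) and Dnajb1 (1.38 ± 0.22) and Hspa8 (0.64 ± 0.18) rose. Hspa8 lost its call without cKO replicate 3 or control replicate 1 or 3, which left 1 that rose, and without cKO replicate 2 the number that rose was 5.

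Retinoic acid receptors bind all-trans retinoic acid as partners of RXR and hold target genes repressed without it. Rarg (chr15:102234938-102257517) had 12.8, 12 and 11.9 CPM in cKO, against 4.92, 2.59 and 4.70 CPM in control, and rose by 1.60 ± 0.25 (edgeR adjusted p = 0.000131). Rara had 5.47, 4.76 and 5.48 CPM in cKO, against 1.99, 3.88 and 3.55 CPM in control. Its groups did not overlap and its adjusted p was 0.0640 (0.73 ± 0.31). With the Wald test of DESeq2 it was 0.0472, and with the stricter filter (3 CPM or more in 3 libraries) 0.0381. Rarb, in many cells itself a retinoic acid target, had 72, 59 and 63 counts in cKO and 4, 7 and 3 in control and did not pass (1.19 ± 0.59; adjusted p = 0.114). Rarb shares 1793 exonic bases with Top2b on the opposite strand, and the strand setting of the counting is unknown here; Top2b did not pass (0.16 ± 0.17).

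Of 11 tested genes that bring retinoid to the cell, make retinoic acid or respond to it, 8 rose, against 24.0% of all tested genes. The number that fell was 0 (0 also at an unadjusted p under 0.05 and with DESeq2), against 20.7% of all tested genes. Of the 11, Rbp4, Aldh1a3 and Cyp26a1, which rose, and Stra6, which did not pass, had at most 4 counts in any control library. They were tested because of their cKO counts, so their direction is no independent support. Aldh1a1 was lower in every cKO library without passing (-0.34 ± 0.17; edgeR adjusted p = 0.126). The list median was 2.18, or 1.90 with Cyp26a1, which had 0 counts in control, set at the floor of 3 counts per control library. Rdh10, which oxidises retinol to retinaldehyde, rose by 2.18 ± 0.25, Aldh1a2, which makes retinoic acid from it, by 2.27 ± 0.30, and Tgm2, a transglutaminase gene induced by retinoic acid, by 1.63 ± 0.17. Adjusted p-values of these 3 ran from 3.35e-06 to 4.97e-05. Cyp26a1, which encodes the enzyme that degrades retinoic acid and is its best known target, had 33, 19 and 20 counts in cKO and 0, 0 and 0 in control; it is named here after its counts were seen. With that stricter filter, which Rbp4, Aldh1a3 and Cyp26a1 do not pass, the number that rose was 5. Aldh1a2 is also expressed in stellate and mesothelial cells, whose marker sums were higher in cKO, and the part of those cells was not tested.

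Retinoid X receptors are the shared partners of the retinoid, thyroid hormone, vitamin D and lipid-sensing receptors. Rxra (chr2:27676440-27762957) had 8.08, 6.57 and 7.62 CPM in cKO and 13.6, 11.7 and 11 CPM in control and fell by 0.70 ± 0.20 (edgeR adjusted p = 0.0110), though its fold change was positive on library totals (2.60) and on totals outside the acinar genes (0.65). Rxrb had 6.67, 8.05 and 7.35 CPM in cKO and 7.44, 5.88 and 4.19 CPM in control, where the ranges overlap, and did not pass (0.33 ± 0.25; adjusted p = 0.307). In counts of the same library, which no scaling alters, there were 0.825, 1.22 and 0.965 Rxrb tags per Rxra tag in cKO and 0.549, 0.505 and 0.379 in control. Rxrg, the isoform of muscle and brain, had 4, 0 and 13 counts in cKO and 0 in each control library; its 13 counts came to 0.217 CPM, and the floor of 3 counts in the control libraries is 0.353 to 0.399 CPM, so no difference was detectable at this depth.

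Thyroid hormone receptors bind triiodothyronine. Thrb (chr14:17660261-18038090) had 2.34, 4.19 and 2.72 CPM in cKO, against 8.90, 9.06 and 6.85 CPM in control, without overlap, and fell by 1.44 ± 0.29 (edgeR adjusted p = 0.000828), while its fold change on library totals was 1.74. Thra had 5.76, 8.47 and 5.73 CPM in cKO and 10.1, 5.88 and 9.01 CPM in control, and did not pass (-0.33 ± 0.26; adjusted p = 0.333). Exons of Thra share 263 bases with Nr1d1 on the opposite strand, and Nr1d1 did not pass either (-1.06 ± 0.51; adjusted p = 0.109). There were 0.406, 0.495 and 0.474 Thrb tags per Thra tag in cKO and 0.882, 1.54 and 0.761 in control. The vitamin D receptor gene Vdr, in the pancreas best known from stellate cells, had 37, 36 and 98 counts in cKO and 2, 14 and 3 in control. Control replicate 2 sat above the cKO mean on the CPM scale, and the change did not pass (0.51 ± 0.69; adjusted p = 0.578; 1.77 without control replicate 2). Of 8 tested genes of thyroid hormone and vitamin D handling and response, 2 rose and 1 fell. The shares over all tested genes were 24.0% and 20.7%. Dio1, a deiodinase that makes the active hormone, had 6, 0 and 13 counts in cKO and 20, 37 and 12 in control and fell by 4.57 ± 0.78 (by 5.45 without cKO replicate 3; -1.24 on library totals). Dio2 rose by 2.01 ± 0.69 (2.68 without control replicate 2), a call lost without cKO replicate 3 or control replicate 1 or 3. The number that rose was 4 without control replicate 2. Dio2 had 94, 58 and 104 counts in cKO and 4, 6 and 0 in control. It was tested because of its cKO counts, so its direction is no independent support. The vitamin D target Cyp24a1 had 0 counts in all 6 libraries.

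**Figure D4:**
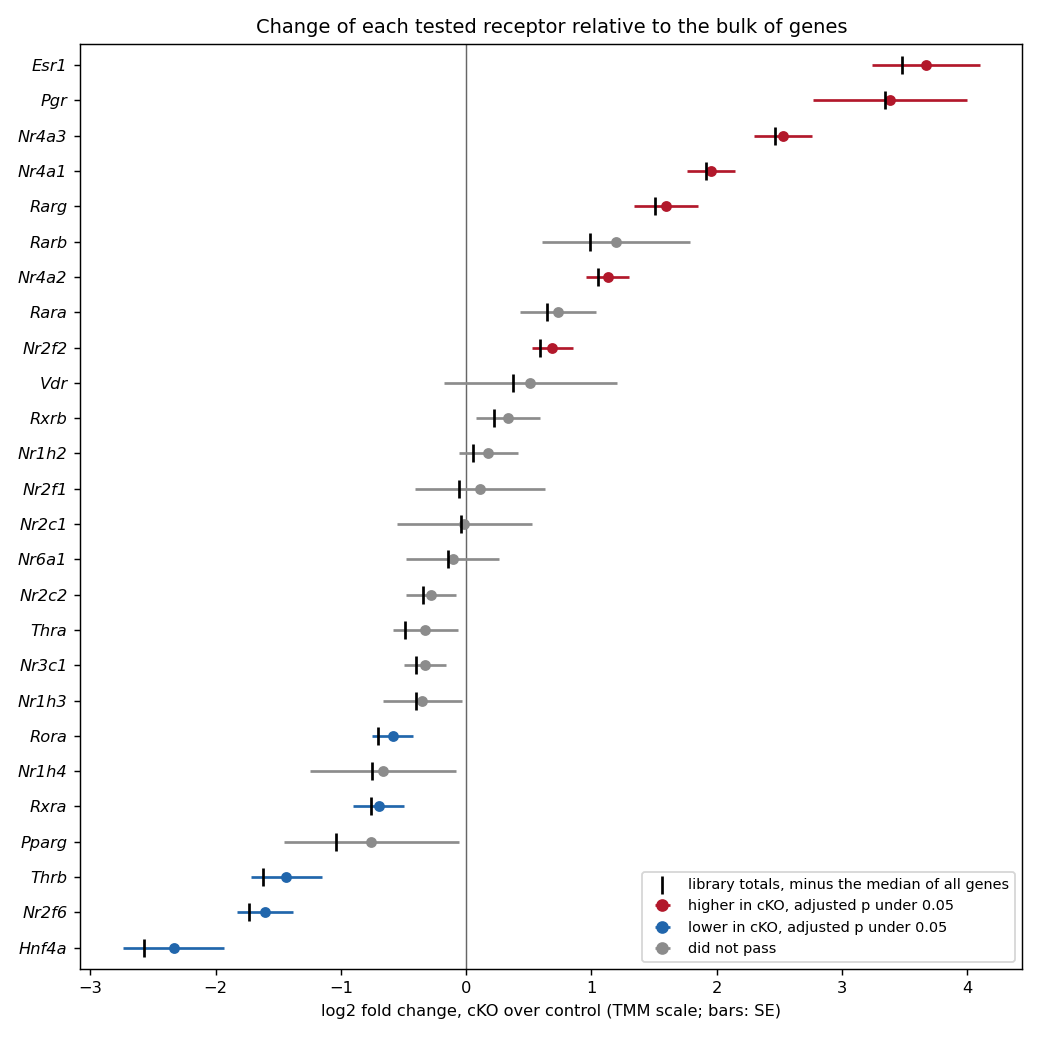
Log2 fold change (cKO over control, TMM scale) of each tested receptor with its SE, coloured by the edgeR call at adjusted p under 0.05; the black tick gives the fold change on library totals minus the median of all tested genes on that scale. The 7 that rose reach from 0.69 (Nr2f2) to 3.67 (Esr1) and the 5 that fell from -0.59 (Rora) to -2.34 (Hnf4a); without subtracting that median, all 5 lie above 0 on library totals.

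Hnf4a (chr2:163506808-163572910) encodes HNF4 alpha, a fatty-acid-bound receptor of liver, gut and pancreatic epithelium. It was counted 42, 51 and 42 times in cKO and 35, 39 and 42 times in control. Against the effective sizes this was 0.707, 1.54 and 0.700 CPM in cKO and 4.65, 4.59 and 5.33 CPM in control. It fell by 2.34 ± 0.41 relative to the bulk of genes (edgeR adjusted p = 0.000279), the lowest fold change among the receptors, and by 2.77 without cKO replicate 2, the library with most acinar tags of the cKO group; on library totals it was 0.79 and did not pass. Duct and endothelial marker sums were lower and acinar markers fell in the same libraries, and their part was not tested. Hnf4g was counted 0, 0 and 2 times in cKO and 0, 0 and 1 times in control.

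The COUP-TF genes moved apart. COUP-TF receptors are orphan receptors that mostly repress; Nr2f2 (COUP-TFII) is known from mesenchyme, veins and lymphatics, and Nr2f6 (EAR2) from lymphoid and epithelial cells. Nr2f2 (chr7:70351944-70366735) had 34.7, 32.6 and 28.7 CPM in cKO and 18.2, 22.6 and 18.9 CPM in control and rose by 0.69 ± 0.16 (edgeR adjusted p = 0.00324). Nr2f6 (chr8:71374123-71381960) had 6.83, 7.53 and 5.62 CPM in cKO and 18.9, 26.5 and 15.4 CPM in control and fell by 1.61 ± 0.22 (adjusted p = 4.20e-05; 1.63 on library totals). Within each library there were 5.08, 4.33 and 5.12 Nr2f2 tags per Nr2f6 tag in cKO and 0.965, 0.853 and 1.23 in control; this ratio and those of Rxrb to Rxra and Thrb to Thra were chosen after the values were seen. Nr2f6 shares 1622 exonic bases with Ocel1 on the opposite strand, and Ocel1 did not pass (-0.64 ± 0.40; adjusted p = 0.205). Nr2f1 (COUP-TFI) had 49, 49 and 83 counts in cKO and 9 in each control library, which made 0.825 to 1.48 CPM in cKO and 1.06 to 1.20 CPM in control, and did not pass (0.11 ± 0.52). Fibroblast markers summed to 3573 to 5099 CPM in cKO and 726 to 823 CPM in control beside these changes, and beside those of Esr1 and Pgr, which uterine and other fibroblasts express; the part of such cells was not tested.

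Rora (chr9:68653786-69388246), which activates through single half-sites and drives the clock gene Bmal1, had 16.2, 18.4 and 14.8 CPM in cKO and 26.7, 24.0 and 23.4 CPM in control. It fell by 0.59 ± 0.17 (edgeR adjusted p = 0.00968; positive, 2.66, on library totals and 0.75 on totals outside the acinar genes), and the call was lost without cKO replicate 3 (adjusted p = 0.0694). The testicular receptor genes Nr2c1 (TR2) and Nr2c2 (TR4) and the germ cell nuclear factor gene Nr6a1 encode orphan receptors that bind direct repeats and mostly repress in early development. Nr2c2 had 11.5, 9.55 and 10.7 CPM in cKO and 15.1, 13.2 and 10.4 CPM in control (-0.28 ± 0.20; adjusted p = 0.267; 95% interval -0.71 to 0.14), and shares 4590 exonic bases with Mrps25 on the opposite strand. Nr6a1 ranged from 2.17 to 3.96 CPM in cKO and from 2.24 to 4.70 CPM in control, and Nr2c1 from 1.05 to 2.20 CPM in cKO and from 0.531 to 3.06 CPM in control. Neither passed (adjusted p = 0.836 for Nr6a1 and 0.986 for Nr2c1), and their 95% intervals were wide, -0.90 to 0.69 for Nr6a1 and -1.16 to 1.13 for Nr2c1.

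The lipid, bile acid and xenobiotic sensors gave 0 calls among 4 tested genes with edgeR, 0 also with DESeq2, and all 4 unadjusted p-values were 0.271 or more; of all tested genes 44.7% were called, and with 4 genes nothing is read from the difference. Nr1h2 (LXR beta), an oxysterol sensor found in most cells, had 6.55, 7.78 and 7.80 CPM in cKO and 5.18, 6.47 and 7.87 CPM in control (0.18 ± 0.24; edgeR adjusted p = 0.572; 95% interval -0.33 to 0.68). Nr1h3 (LXR alpha), the form of liver and macrophages, had 3.94, 2.83 and 3.92 CPM in cKO and 3.06, 6.24 and 4.32 CPM in control (-0.35 ± 0.32; adjusted p = 0.400). The groups of both overlapped. Nr1h4 (FXR), the bile acid receptor, had 71, 35 and 72 counts in cKO and 17, 3 and 23 in control (-0.66 ± 0.58; adjusted p = 0.379), and Pparg, the fat cell regulator, 23, 48 and 61 in cKO and 3, 9 and 26 in control (-0.76 ± 0.70; adjusted p = 0.405). Pparg changed sign without control replicate 3 (0.35). The xenobiotic receptor genes Nr1i2 (PXR) and Nr1i3 (CAR), best known from liver, had at most 4 counts in any library.

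Targets of these sensors moved in both directions. Of 10 LXR targets 6 rose and 2 fell, with a median of 0.87, where 24.0% of all tested genes rose and 20.7% fell. Lpl, which rose and is also on the PPAR gamma list, lost its call without cKO replicate 1 or 3 or control replicate 2 or 3. The cholesterol exporter gene Abca1 rose by 2.0 ± 0.21, the lipid transfer protein gene Pltp by 1.23 ± 0.17 and Apoe by 2.31 ± 0.24, all of which macrophages also express, while the desaturase gene Scd2 fell by 1.99 ± 0.22, which turned round on library totals. Of 7 tested PPAR gamma targets 4 rose and 2 fell, with a median of 0.52. Angptl4, a secreted lipase inhibitor, rose by 2.12 ± 0.25, the lipid droplet protein gene Plin2 by 1.56 ± 0.22 and the fatty acid transporter gene Cd36 by 1.16 ± 0.22, and Acsl1 fell by 1.09 ± 0.26 (positive on library totals). The number that fell was 1 without cKO replicate 1 or control replicate 1 or 3. Of 10 bile acid and xenobiotic targets 3 were tested, and 1, Nr0b2 (SHP), fell (-2.73 ± 0.59, and -3.35 without cKO replicate 2; positive on library totals). Macrophage markers summed to 242 to 530 CPM in cKO and 59.7 to 88.5 CPM in control beside these rises, and their part was not tested.

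Receptors act through coregulators. Of 16 coactivators 5 rose and 4 fell, with a median of 0.01. Of 10 corepressors 3 rose and 0 fell (0 also at an unadjusted p under 0.05 and with DESeq2), with a median of 0.20. The shares of all tested genes that rose and fell were 24.0% and 20.7%. The acetyltransferase genes Crebbp (0.92 ± 0.16) and Ep300 (0.95 ± 0.24) and Ncoa3 (1.40 ± 0.31) rose, and the arginine methyltransferase gene Carm1 fell (-0.81 ± 0.18). Ppargc1a (PGC-1 alpha), the coactivator of mitochondrial genes and a partner of ERR receptors, had 0, 9 and 11 counts in cKO and 7, 26 and 12 in control and fell by 3.67 ± 0.90 (-3.02 without cKO replicate 1, -4.26 without cKO replicate 2 and under the filter without control replicate 2). On library totals it was -0.59. Gps2 (0.68 ± 0.19) and Sin3a (0.93 ± 0.24) were the corepressor genes with the smallest p-values, whereas Ncor1, a corepressor of unliganded receptors, did not pass (0.35 ± 0.15; adjusted p = 0.0660, and 0.0172 without cKO replicate 2). Among the 18 other receptors of the superfamily, 9 were tested: 1 rose and 5 fell, with a median of -1.15. Those that fell included Ppara, which shares RXR as partner with the lipid sensors, at -2.29 ± 0.39 and the acinar regulator gene Nr5a2 at -2.03 ± 0.40. On library totals 0 of the coregulators and other receptors were called lower.

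**Figure D5:**
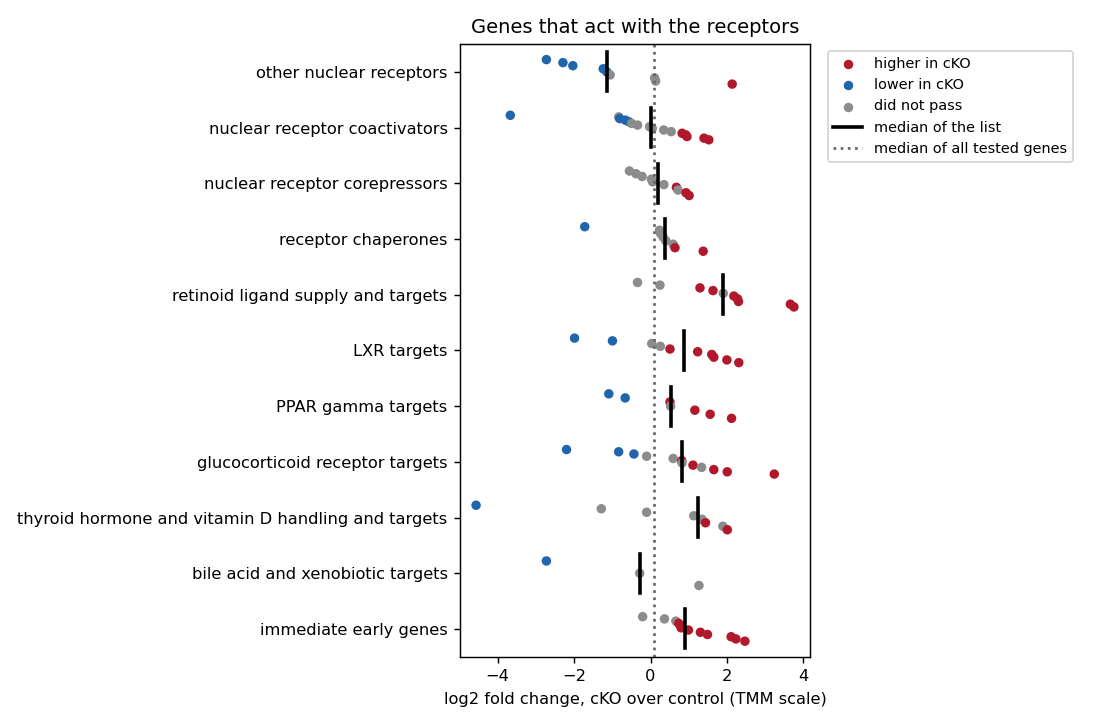
Log2 fold change (cKO over control, TMM scale) of each tested gene in 11 lists of genes that act with the receptors, coloured by the edgeR call; the bar is the list median and the dotted line the median of all tested genes (0.10). Retinoid genes (1.90, with Cyp26a1 at its floor and not drawn) and immediate early genes (0.89) lie mostly to the right; on library totals the median of all tested genes lies 3.26 higher.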

How the data were processed

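The libraries were made with the Lexogen QuantSeq kit, which reads 1 tag near the 3' end of a transcript, per the labels' protocols. Each deposited table holds 1 library as whole-number read counts beside gene symbols. The submitters' processing notes name Bowtie2, edgeR, mm10 and GRCm38 without their roles; no source used here states the counting tool, annotation or strand setting. No molecular identifiers are described, so the floors of 3 counts cover counting error only.

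Here, genes kept by filterByExpr (minimum count 10, minimum total 15) were scaled with TMM and tested with the quasi-likelihood test of edgeR 4.0.16 in R 4.3.3, with Benjamini-Hochberg adjustment over all tested genes. The SE is the log2 fold change divided by the square root of F. DESeq2 1.42.0, 4 other scalings, 2 other filters, thinning, a replicate block and leaving out each library were the alternatives. All 31 receptors are reported, and up to 4 genes per list with the smallest p, plus a few chosen after their values were seen (among them Jun, Ep300, Ppargc1a, Cyp26a1, Cyp24a1, Esr2 and Ncor1); some genes that the rule names are not reported here. The members and lists were chosen with earlier results of these data known. Gene positions are from GENCODE M21 (GRCm38); promoters are from RefSeq.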

Additional observations from a re-analysis of the deposited data

How the results depend on the processing

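Of the 12 receptor calls, 12 were kept with DESeq2 size factors, upper quartile factors, no filter, thinning, the DESeq2 Wald test and the replicate block. Of the settings run, both scalings by totals moved the counts of receptors and of all genes by more than 1.5 times. On library totals, 25 receptors were higher and 0 lower, and 12653 and 53 of all tested genes. On totals outside the acinar enzymes, Rn45s and Casp9, 21 receptors were higher and 1 lower (9531 and 481 of all genes), and the median of all genes shifted by 1.35. These shifts follow from the construction of the scales.

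Receptors that changed sign on library totals were Rxra (2.60), Thra (2.88), Thrb (1.74), Nr1h3 (2.96), Nr1h4 (2.61), Pparg (2.32), Nr3c1 (2.96), Hnf4a (0.79), Nr2f6 (1.63), Nr2c1 (3.32), Nr2c2 (3.02), Nr6a1 (3.22) and Rora (2.66). On totals outside the acinar genes they were Rxra (0.65), Thra (1.01), Nr1h3 (1.00), Nr1h4 (0.70), Pparg (0.56), Nr3c1 (1.02), Nr2c1 (1.34), Nr2c2 (1.07), Nr6a1 (1.26) and Rora (0.75), while Thrb (-0.11) and Nr2f6 (-0.28) no longer passed. Near 0, Nr2c1 changed sign with upper quartile factors (0.0033), no filter (0.026) and the replicate block (0.10), and Nr1h2 with thinning (-0.0077); the cause was not tested. Leaving out 1 library gave 7 receptors higher each time and 4 to 5 lower, with 2388 to 3411 of all genes higher and 2077 to 2829 lower. It changed the sign of Pparg (-1.21 to 0.35), Nr2f1 (-0.024 to 0.34), Nr2c1 (-0.43 to 0.67) and Nr6a1 (-0.36 to 0.26).

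The labels do not say what the replicate numbers mark. Deviations of same-numbered libraries correlated at 0.015, -0.024 and -0.0062, and those of unlike-numbered libraries at -0.033 to 0.034. The correlation runs over all tested genes, those with few counts included, so it cannot show whether a number marks a shared animal or day. With the replicate block 7 receptors were higher and 5 lower, and 2884 and 2505 of all genes. Low counts limit Rarb, Esr1, Pgr and Nr2f1, which had under 10 counts in every control library (SE 0.43 to 0.61), and the SEs of Pparg (0.70) and Vdr (0.69) were higher still.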
